A study of Homo sapiens with 2 samples.

Results

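Aminoacyl-tRNA synthetases are the enzymes that join each amino acid to its transfer RNA (tRNA), the charging step that supplies protein synthesis. The genes described here are 38 of the 19362 genes in the deposited table. They were chosen by name, with earlier results of these data known: 19 code for cytosolic enzymes, 16 for mitochondrial enzymes and 3 for the scaffold proteins of the multi-synthetase complex. All 38 were found, and all 38 passed the filter on low values, which asks for 1 CPM or more on average across the pair of libraries. CPM is the read count scaled to a common library total.

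The samples were FTC-133 cells, an established human cell line from a follicular thyroid carcinoma. There were 2 RNA-seq libraries, 1 from cells transfected with a control siRNA and 1 from cells transfected with siRNA against CHI3L1, the gene of the secreted glycoprotein YKL-40. They are called the control and the knockdown library. Both came from transfected cells of this 1 line, and neither the siRNA sequences nor the time after transfection is known from the labels. The comparison asks what differs when CHI3L1 is silenced.

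The libraries held 15837449 and 19467345 reads in genes. CHI3L1 itself stood at 140.1 CPM in the control library and 48.6 CPM in the knockdown library, a ratio of 0.347 (0.321 to 0.374). Since each group has 1 library, differences have no replicate check and no p-value, and they describe these libraries, not the conditions. Intervals in parentheses are 95% exact (Clopper-Pearson) intervals from read counts. They cover counting error only, not the spread between repeated libraries. No molecular identifiers are described, so copies of 1 molecule may be counted as separate reads. A gene counts as higher or lower past 1.5-fold, on a log2 fold of the knockdown library over the control library with 1 CPM added to each value, which understates the difference of low genes. Among all 14815 genes past the filter, 7.73% were higher by this rule and 13.4% lower, and the median log2 fold was 0.01. In bulk RNA, fewer cells that express a gene and less of its RNA per cell cannot be told apart. The thyroid transcription factor genes PAX8 (82.8 CPM in the control library) and NKX2-1 (88.6 CPM) were present. Thyroglobulin (TG) stood at 0.632 CPM. Of 11 thyroid follicular markers listed, 8 had a value and 6 passed the filter, and TG and the transcription factor gene FOXE1 were below it. Of 5 immune markers 1 had a value, which did not pass it, whereas 4 of 5 fibroblast markers passed, with a summed level of 618 CPM in the control library and 795 CPM in the knockdown library. Most of that sum was THY1 (558 and 745 CPM). LUM was lower in the knockdown library (51.8 and 40.2 CPM), and DCN stood at 1.20 and 1.49 CPM. Of 5 epithelial markers 4 passed, with a summed level of 86.4 and 86.2 CPM. EPCAM among them (2.02 and 4.001 CPM) was at least 1.5-fold higher in the knockdown library. KRT18 (31.6 and 24.7 CPM) was lower, short of 1.5-fold. Of 4 endothelial markers 3 passed, with a summed level of 11.3 and 9.75 CPM, and PECAM1 (7.34 and 3.80 CPM) was at least 1.5-fold lower. KDR went the other way (2.47 and 4.05 CPM), with a log2 fold of 0.54 that did not pass 1.5-fold. Of 3 C cell markers 1 passed, CALCA, at 10.1 and 7.39 CPM. Whether these markers bear on the folds of the synthetase genes was not tested.

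Cytosolic synthetases charge the tRNAs used by cytosolic ribosomes, and a separate set of nuclear genes, most with the suffix 2, codes for the enzymes imported into mitochondria. Several cytosolic enzymes assemble on the scaffold proteins AIMP1, AIMP2 and EEF1E1 (also called AIMP3) in the multi-synthetase complex. When amino acids run short or the endoplasmic reticulum is stressed, the transcription factor ATF4 raises the transcription of many cytosolic synthetase genes, together with genes of amino acid uptake and synthesis. It binds, with C/EBP family partners, to a composite element whose core reads TGATGNAA.

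Promoter windows from RefSeq (GRCh38.p14), from 250 bases before to 50 after each gene start, were searched for TGATGNAA on both strands. A window was had for 33 of the 38 genes, all but LARS1, VARS1, YARS1, AARS2 and VARS2. A match lay in a window of 7 of 16 cytosolic genes, 1 of 14 mitochondrial genes and 0 of 3 scaffold genes, and in 3.62% of all 35116 windows in the table. Of 27305 genes with a window, 4.46% had a match. The search was made after the folds had been seen. The other 3 elements searched in it, on both strands, were the cAMP response element TGACGTCA, the E-box CACGTG and the ETS element CCGGAAGT, of which the first and the second read the same on both strands. TGACGTCA was found for 0 of 16 cytosolic genes, 0 of 14 mitochondrial genes and 1 of 3 scaffold genes (AIMP2), and for 2.25% of all genes with a window. CACGTG was found for 1 of 16 cytosolic genes (IARS1), 3 of 14 mitochondrial genes (CARS2, EARS2 and MARS2) and 1 of 3 scaffold genes (AIMP2), and for 8.77% of all genes. CCGGAAGT was found for 5 of 16 cytosolic genes (CARS1, HARS1, NARS1, TARS1 and WARS1), 3 of 14 mitochondrial genes (EARS2, HARS2 and PARS2) and 0 of 3 scaffold genes, and for 4.95% of all genes. These elements lay in 1.85%, 7.26% and 4.14% of all windows. Matches of different elements overlapped in 0 of the members' windows. The matches to TGATGNAA are shown because they are set beside the folds further on. They are given 5′ to 3′ on the gene's strand with 10 bases on each side, in order of log2 fold, with the match in capitals.
AARS1: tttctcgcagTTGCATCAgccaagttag
GARS1: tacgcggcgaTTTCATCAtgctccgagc
CARS1: ggggcggcggTTGCATCAgattctagga
IARS1: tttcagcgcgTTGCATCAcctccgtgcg
MARS1: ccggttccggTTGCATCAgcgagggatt
TARS1: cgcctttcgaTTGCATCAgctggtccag
NARS1: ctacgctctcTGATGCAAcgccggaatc
YARS2: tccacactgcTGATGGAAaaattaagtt

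The stretches lie at chr16:70289676-70289703 (minus strand) for AARS1, chr7:30594835-30594862 (plus) for GARS1, chr11:3057408-3057435 (minus) for CARS1, chr9:92293693-92293720 (minus) for IARS1 and chr12:57488054-57488081 (plus) for MARS1. They lie at chr5:33440957-33440984 (plus) for TARS1, chr18:57621805-57621832 (minus) for NARS1 and chr12:32756077-32756104 (minus) for YARS2. On the genes' strands 6 of the matches read in the reverse direction, TTGCATCA or TTTCATCA, and those of NARS1 and YARS2 read forward. The matches of CARS1, IARS1 and MARS1 began 2, 13 and 4 bases before the annotated start, and that of GARS1 33 bases before it. The matches of TARS1 and NARS1 began at bases 3 and 15 after the start, so they lie in the transcribed part. The AARS1 and YARS2 matches lay farther upstream, 187 and 197 bases before their starts. The AARS1 match lies inside the body of DDX19B, which runs on the opposite strand. RefSeq starts can differ from the gene ends in GENCODE that are given with the genes. The window of EPRS1, the member with the next highest fold, held no match, which says only that these letters are not in it.

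Among cytosolic enzymes, AARS1, EPRS1 and GARS1 were at least 1.5-fold higher in the knockdown library (3 of 19, 15.8%, against 7.73% of all genes tested), and 0 of 19 were at least 1.5-fold lower. The median log2 fold of the 19 genes was 0.37, against 0.01 over all genes tested. Above 0 were 15 of the 19, against 7580 of all 14815 genes tested. None of the 19 was 2-fold higher, which 1.03% of all genes tested were. Summed over the 19 genes, the level was 1949 CPM in the control library and 2465 CPM in the knockdown library. The counting interval of the ratio lay wholly above 1 for 13 of them and wholly below 1 for 3, against 32.0% and 29.7% of all genes tested. Folds also went with transcript length in these libraries (Spearman rho 0.46 across 12673 coding genes, which are not independent replicates). Values after subtracting a smooth trend with transcript length, coding length and GC content are therefore given as well. After it the cytosolic median was 0.23, against 0.07 over those coding genes, and the same 3 genes were at least 1.5-fold higher, as were 7.78% of those coding genes.

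**Figure D1:**
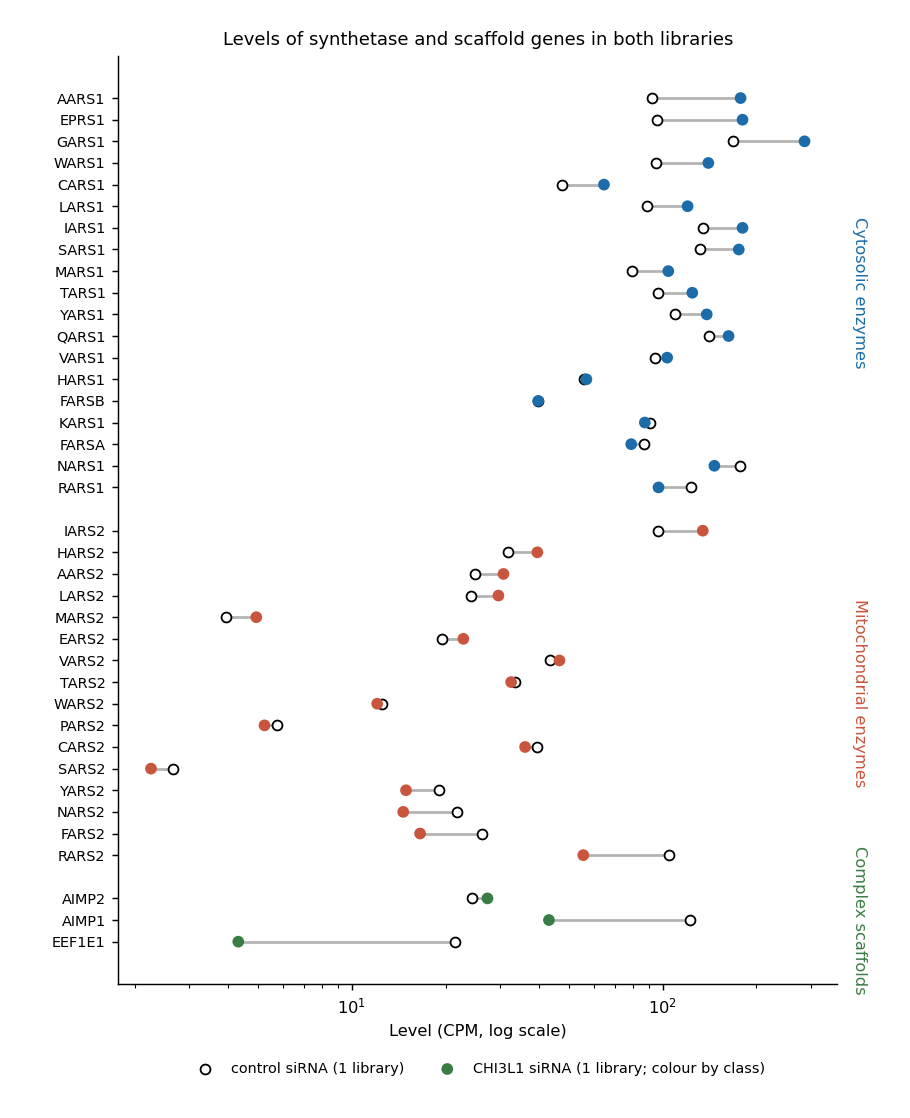
Level of each synthetase and scaffold gene in CPM (log scale) in the control library (open points) and in the knockdown library (filled points, coloured by class), 1 library each and joined by a line. AARS1, EPRS1 and GARS1 stand to the right of their control points, and AIMP1, EEF1E1 and RARS2 to the left.

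AARS1, the alanyl-tRNA synthetase gene (ENSG00000090861, chr16:70252295-70289543, minus strand in GRCh38), stood at 92.2 CPM in the control library and 178 CPM in the knockdown library. The ratio was 1.93 (1.81 to 2.05) and the log2 fold 0.94, which is at percentile 98.6 of all genes tested. EPRS1 (ENSG00000136628, chr1:219968601-220046658, minus strand), which codes for a single protein that charges both glutamate and proline, stood at 96.1 CPM in the control library and 180.5 CPM in the knockdown library. Its ratio was 1.88 (1.77 to 1.997), and its log2 fold of 0.90 is at percentile 98.3. GARS1 (ENSG00000106105, chr7:30594681-30634033, plus strand), the glycyl-tRNA synthetase gene, stood at 168 CPM in the control library and 286 CPM in the knockdown library, with a ratio of 1.70 (1.62 to 1.78). All 3 were higher in the knockdown library with counting intervals wholly above 1.5-fold, and after the length and GC trend their log2 folds were 0.73, 0.74 and 0.69. GARS1 and KARS1, the lysyl enzyme, each give both the cytosolic and the mitochondrial enzyme from 1 gene, but KARS1 was not among the higher genes. KARS1 stood at 90.7 CPM in the control library and 87.6 CPM in the knockdown library, and its interval held 1 (0.899 to 1.04).

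A further 8 cytosolic genes had log2 folds between 0.33 and 0.56, below 1.5-fold but with intervals above 1. WARS1, the tryptophanyl enzyme, came nearest to 1.5-fold, at 95.04 CPM in the control library and 140.1 CPM in the knockdown library, a ratio of 1.47 (1.38 to 1.57). CARS1, the cysteinyl enzyme, stood at 47.4 and 64.7 CPM in the control and knockdown libraries. LARS1 and IARS1, the leucyl and isoleucyl enzymes of the complex, had near equal log2 folds of 0.43 and 0.42, from 89.1 to 120.2 CPM and from 135 to 180.5 CPM. SARS1, the seryl enzyme, stood at 132 and 176 CPM, MARS1, the methionyl enzyme, at 79.9 and 104 CPM, TARS1, the threonyl enzyme, at 96.2 and 124 CPM, and YARS1, the tyrosyl enzyme, at 109.8 and 138 CPM. These 8 ratios lay between 1.26 and 1.47, all above the control library. After the length and GC trend the log2 folds of these 8 genes lay between 0.19 (YARS1) and 0.47 (SARS1).

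The remaining cytosolic genes lay nearer to 1 or below it. QARS1, the glutaminyl enzyme, had a ratio of 1.15 (1.09 to 1.22), and VARS1, the valyl enzyme, of 1.09 (1.021 to 1.17). After the length and GC trend the log2 folds were 0.08 for QARS1 and −0.11 for VARS1. For HARS1, the histidyl enzyme (55.6 and 56.8 CPM), and FARSB, the beta subunit of the phenylalanyl enzyme (39.6 and 39.8 CPM), the intervals held 1. FARSA, the alpha subunit of the same enzyme, had a ratio of 0.912 (0.848 to 0.982), and its interval overlapped that of FARSB. The lowest cytosolic values were those of NARS1, the asparaginyl enzyme, and RARS1, the arginyl enzyme. NARS1 had 177 CPM in the control library and 147 CPM in the knockdown library, and its ratio was 0.827 (0.784 to 0.871). RARS1 had 123 and 96.9 CPM, and its ratio was 0.789 (0.740 to 0.841). After the length and GC trend the log2 folds were −0.26 for NARS1 and −0.11 for RARS1.

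**Figure D2:**
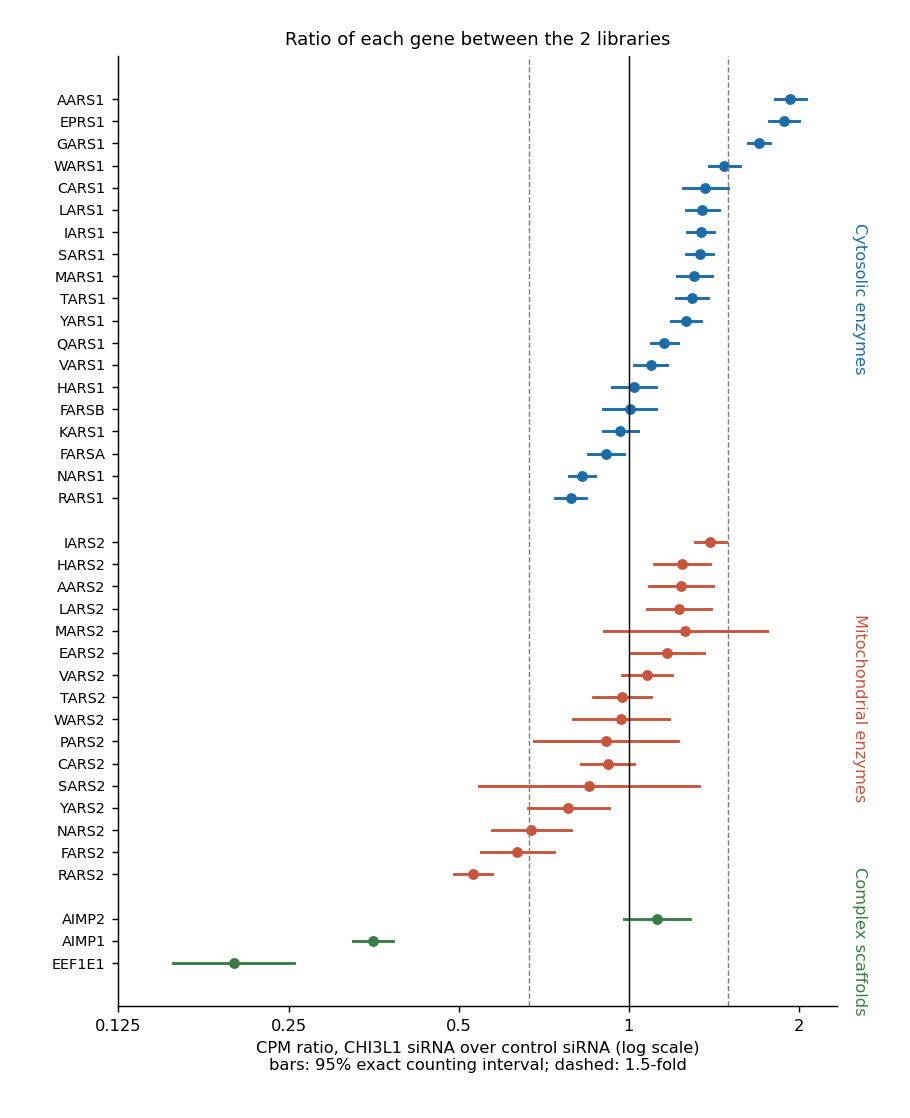
Ratio of CPM in the knockdown library over the control library (log scale) for each gene, with 95% exact counting intervals as bars, the ratio of 1 as a solid line and 1.5-fold as dashed lines. The intervals of 3 cytosolic genes lie wholly above 1.5-fold, and those of RARS2, AIMP1 and EEF1E1 wholly below it in the other direction.

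The 13 cytosolic genes usually listed as ATF4 targets had a median log2 fold of 0.42. Of them 12 lay above 0, against 7580 of all 14815 genes tested. The exception among the 13 was NARS1. The other 6 (FARSA, FARSB, HARS1, KARS1, QARS1 and RARS1) had a median of −0.02, with 3 above 0 and 0 past 1.5-fold in either direction. After the length and GC trend the medians were 0.33 and 0.00. All 7 cytosolic genes with a match to TGATGNAA are in the first list, where 7 of 10 genes with a window had one, against 0 of the other 6. Some genes of the first list have more than 1 window, so more sequence was searched for them. By window, 7 of 15 held a match in the first list and 0 of 6 in the other. The list of targets and the element are not independent, since such elements are among the grounds on which genes are listed. Cytosolic genes with a match had a median log2 fold of 0.42 (range −0.27 to 0.94) and those with a window but no match 0.03 (−0.34 to 0.90), and these ranges overlapped. After the length and GC trend the medians were 0.26 and 0.08.

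The amino acid stress response is the setting in which these synthetases are usually described. Of its 16 listed genes, 9 were at least 1.5-fold higher (against 7.73% of all genes tested) and 0 lower, with a median log2 fold of 0.60. After the length and GC trend the median was 0.65 and 9 were again higher, against 7.78% of coding genes. The interval lay wholly above 1 for 12 of the 16 and wholly below 1 for 3, against 32.0% and 29.7% of all genes tested. The genes below 0, named after their values were seen, were ATF3 (log2 fold −0.45), DDIT3 (−0.33), MTHFD2 (−0.13) and SHMT2 (−0.07). ATF4 itself, also named after its value was seen, had a log2 fold of 0.27, short of 1.5-fold. A match to TGATGNAA was found for 3 of 13 genes of this list with a window. SLC7A5, a transporter of large neutral amino acids, stood at 23.5 and 78.9 CPM, and SESN2, a stress sensor that limits mTORC1, at 11.0 and 27.5 CPM. ALDH1L2, an enzyme of mitochondrial folate metabolism, and VLDLR, a lipoprotein receptor, had log2 folds of 1.09 and 0.98. The log2 fold of AARS1 (0.94) was below those of these 4 genes, but its ratio interval overlapped that of VLDLR (1.84 to 2.16), and after the trend VLDLR was at 0.70 and AARS1 at 0.73.

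The 7 cytosolic members that belong to the multi-synthetase complex (EPRS1, IARS1, LARS1, MARS1, QARS1, RARS1 and KARS1) had a median log2 fold of 0.38, and the 12 outside it 0.35. The complex enzymes spread from −0.34 for RARS1 to 0.90 for EPRS1, which is wider than the gap between both medians. Synthetases also fall into structural classes that differ in the fold of their catalytic domain. The median was 0.40 for 10 cytosolic class I genes and 0.03 for 9 of class II, and 0.25 and 0.08 after the length and GC trend. EPRS1 is counted in class I here, although its prolyl part is of class II. The class medians do not give the order of single genes, since AARS1 and GARS1, at the top of the order, are of class II.

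Of the scaffold genes, AIMP1 and EEF1E1 were lower and AIMP2 did not pass 1.5-fold (2 of 3 lower, against 13.4% of all genes tested). AIMP1 (ENSG00000164022, chr4:106315544-106349226, plus strand), whose product binds tRNA and the arginyl enzyme, stood at 122 CPM in the control library and 43.0 CPM in the knockdown library. That is 1932 and 839 reads, a ratio of 0.352 (0.324 to 0.382), at percentile 1.17 of all genes tested. EEF1E1 (ENSG00000124802, chr6:8073360-8102578, minus strand), whose product anchors the methionyl enzyme, stood at 21.5 CPM in the control library and 4.31 CPM in the knockdown library. It had 340 and 84 reads, a ratio of 0.200 (0.156 to 0.255) and a log2 fold of −2.08. Both were more than 2-fold lower, as were 4.41% of all genes tested. AIMP2 (ENSG00000106305, chr7:6009245-6023834, plus strand), the scaffold core protein, stood at 24.3 CPM in the control library and 27.3 CPM in the knockdown library, and its interval held 1 (0.981 to 1.28).

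EEF1E1 and AIMP2 have short annotated transcripts (1077 and 1225 nt), and the 3104 coding genes with transcripts of up to 2000 nt had a median of −0.30. AIMP2 was above that median and EEF1E1 below it. After the length and GC trend the log2 folds were −1.10 for EEF1E1, −1.21 for AIMP1 (2412 nt) and 0.44 for AIMP2. At least 1.5-fold lower after it were thus 2 of 3 scaffolds, against 6.11% of coding genes.

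**Figure D3:**
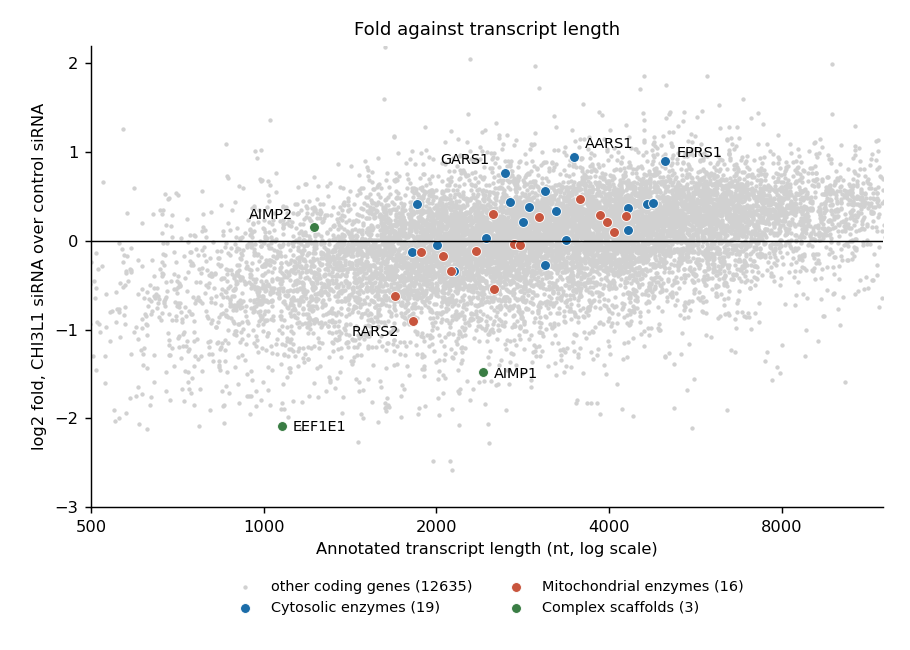
Log2 fold of the knockdown library over the control library against annotated transcript length (log scale) for coding genes past the filter in grey and for cytosolic, mitochondrial and scaffold genes in colour. The axes leave out 272 other genes. AIMP1 and EEF1E1 lie near the lower edge of the cloud at their lengths, and AARS1, EPRS1 and GARS1 near the upper edge.

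Mitochondrial enzymes had a median log2 fold of −0.04, with 7 of 16 above 0, against 7580 of all 14815 genes tested. Past 1.5-fold were 2, both lower (12.5%, against 13.4% of all genes tested). That share is near the background. Their summed level was 510 CPM in the control library and 498 CPM in the knockdown library. The counting interval held 1 for 7 of the 16, as it did for 5683 of all 14815 genes tested. It lay wholly above 1 for 5 and wholly below 1 for 4, against 32.0% and 29.7% of all genes tested. Per kilobase of transcript they were also expressed at lower levels than cytosolic enzymes (control medians of 8.82 and 28.96 CPM per kb). Without regard to length the control medians were 24.5 and 95.04 CPM. Their ratios mostly rest on fewer reads and are then less precise. RARS2 (1659 and 1082 reads) and IARS2 (1528 and 2622 reads) had counts like those of cytosolic genes.

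RARS2, the mitochondrial arginyl enzyme (ENSG00000146282, chr6:87514378-87590003, minus strand), was the lowest of them at 105 CPM in the control library and 55.5 CPM in the knockdown library, a ratio of 0.529 (0.490 to 0.571). Its interval lay wholly beyond 1.5-fold, and its log2 fold was −0.91 before and −0.62 after the length and GC trend. In the control library it also had the highest level per length of the mitochondrial genes, 57.7 CPM per kb, and in the knockdown library 30.5 CPM per kb, below the 37.8 CPM per kb of IARS2. FARS2, the mitochondrial phenylalanyl enzyme (chr6:5261044-5829192, plus strand), stood at 26.1 CPM in the control library and 16.6 CPM in the knockdown library. Its ratio was 0.634 (0.547 to 0.736), and after the trend its log2 fold of −0.52 no longer passed 1.5-fold. NARS2, the asparaginyl enzyme, had a ratio of 0.672 (0.572 to 0.789) and YARS2, the tyrosyl enzyme, of 0.782 (0.663 to 0.921), both below 1 but short of the threshold on the log2 scale.

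IARS2, the mitochondrial isoleucyl enzyme, was the highest of the 16 at 96.6 CPM in the control library and 134 CPM in the knockdown library, a ratio of 1.39 (1.31 to 1.48). HARS2 (histidyl), AARS2 (alanyl), LARS2 (leucyl) and EARS2 (glutamyl) had ratios between 1.17 and 1.24 with intervals above 1. After the length and GC trend the log2 fold was 0.41 for IARS2, 0.27 for HARS2 and 0.08 for AARS2. For LARS2 and EARS2 it was −0.005 and −9.3e-05 after the trend. For 7 genes the interval held 1: CARS2 (cysteinyl), TARS2 (threonyl), VARS2 (valyl), WARS2 (tryptophanyl), PARS2 (prolyl), MARS2 (methionyl) and SARS2 (seryl). The last 2 of these had few reads, 62 and 96 for MARS2 and 42 and 44 for SARS2. A difference of the size seen for AARS1 lies outside the SARS2 interval (0.544 to 1.33), and ratios inside that interval could not be told from 1 at this depth.

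Set side by side for the same amino acid, the cytosolic gene had the higher log2 fold in 15 of 17 pairs, and in 10 of these the counting intervals were apart. The pairs are not independent, since EPRS1 stands in 2 of them and FARS2 in 2. The median difference over pairs was 0.56, and the difference of the class medians 0.41 (0.32 after the length and GC trend). The gap was widest for EPRS1 over PARS2 (0.90 against −0.12), and it was 0.65 for AARS1 over AARS2 and 0.67 for YARS1 over YARS2. In the pairs IARS1 with IARS2 and HARS1 with HARS2 the mitochondrial gene was higher, with intervals that overlapped. Arginyl enzymes were low on both sides, with log2 folds of −0.34 for RARS1 and −0.91 for RARS2, and both asparaginyl genes were below 0 too (−0.27 and −0.54). After the trend the cytosolic gene was again the higher in 15 of 17 pairs.

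**Figure D4:**
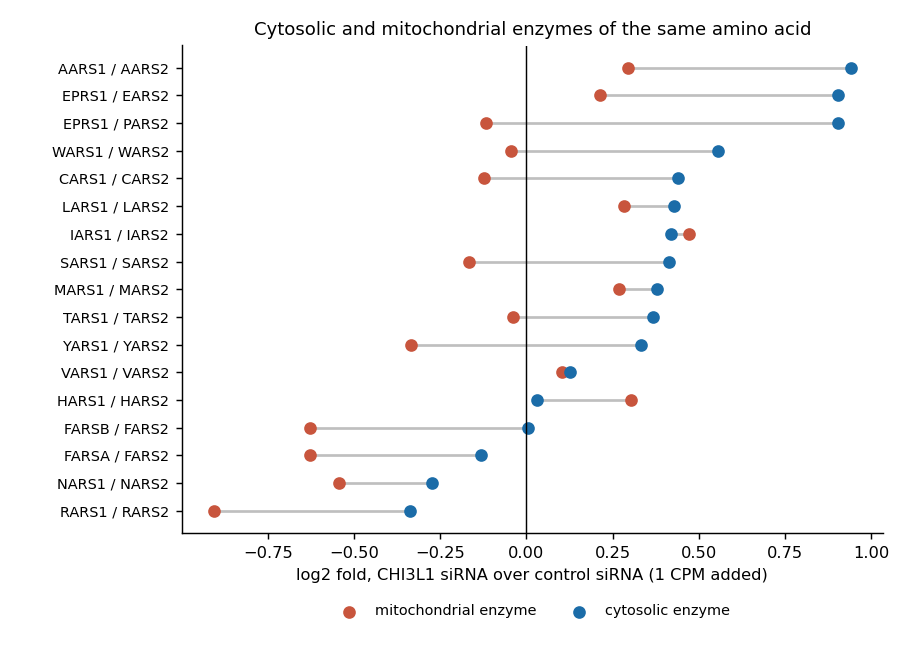
Log2 fold of the knockdown library over the control library (1 CPM added) for the cytosolic (blue) and the mitochondrial (red) gene of the same amino acid, 1 row per pair. The blue point is to the right in 15 of 17 rows, with IARS1 and HARS1 as the exceptions.

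The order of levels per length was led by SARS1 in the control library, at 71.1 CPM per kb, followed by GARS1 at 63.9. In the knockdown library GARS1 stood at 108 CPM per kb and SARS1 at 94.8, so their order was the opposite. FARSB was the lowest cytosolic gene in both, at 11.8 CPM per kb in each, below FARSA, whose product pairs with that of FARSB, at 47.8 and 43.6 CPM per kb. SARS2 and MARS2 were the lowest mitochondrial genes, at 1.29 and 1.30 CPM per kb in the control library.

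Outside the 38 genes, 3 further synthetase genes had a median log2 fold of 0.43, with 0 past 1.5-fold. The 4 genes that complete mitochondrial glutaminyl-tRNA or formylate mitochondrial methionyl-tRNA (GATB, GATC, QRSL1 and MTFMT) had a median of −0.24, with 0 past 1.5-fold. All 4 had log2 folds below 0, as did 7235 of all 14815 genes tested. Among genes of tRNA cutting, splicing and export, 22 of 23 passed the filter, 0 were higher and 8 were at least 1.5-fold lower (against 13.4% of all genes tested), with a median of −0.44. POP5, POP7 and RPP40, protein subunits of ribonuclease P, had log2 folds of −1.14, −0.79 and −0.83, and TRMT10C, a subunit of the mitochondrial enzyme, of −0.82. After the length and GC trend these log2 folds were −0.55, −0.17, −0.47 and −0.35, so none of the 4 passed 1.5-fold. After it 2 of the 22 were lower (against 6.11% of coding genes), with a median of −0.31.

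PTRH2, a peptidyl-tRNA hydrolase of mitochondria, was 1 of 5 tested genes of editing and recycling and stood at 50.7 CPM in the control library and 15.8 CPM in the knockdown library, a ratio of 0.313 (0.273 to 0.357). The other 4 did not pass 1.5-fold, so 20.0% of the 5 were lower, against 13.4% of all genes tested. The log2 fold of PTRH2 (901 nt) was −1.62 before and −1.06 after the length and GC trend. After the trend 1 of the 5 was again lower, against 6.11% of coding genes. All 4 genes of selenocysteine charging had intervals that held 1, as did 5683 of all 14815 genes tested. EEF1B2, which reloads the factor that brings charged tRNA to the ribosome, stood at 410.5 and 187 CPM, and it was the 1 of 5 tested delivery genes past 1.5-fold (20.0%, against 13.4% of all genes tested at least 1.5-fold lower). All 5 had log2 folds below 0, as did 7235 of all 14815 genes tested, with a median of −0.43 (−0.50 after the trend). Their intervals all lay wholly below 1, against 29.7% of all genes tested. Reads of EEF1B2 may be shared with pseudogenes and are uncertain.

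Reads of some members are uncertain as well, because the labels do not say whether strand was used in counting. Exons of 14 of the 38 genes overlap those of another gene in the table, for 13 on the opposite strand. The overlapping gene had more reads than the member for EARS2, HARS2, SARS2 and AIMP2. SARS2 had 42 reads in the control library against 825 of MRPS12, whose start lies 348 bases from its own. AIMP1 overlaps TBCK, which had 181 reads there. Processed or other pseudogenes named after 13 of the members, AIMP1 and EEF1E1 among them, are annotated, and 0 of these are in the table.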

How the data were processed

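RNA was measured in 2 libraries of FTC-133 cells, 1 per group, assigned by their labels. Per the submitters' processing notes, HISAT2, featureCounts, Trimmomatic, FastQC and MultiQC were used with the build GRCh38, and no versions or roles are named. The authors deposited normalised read counts, which from the values are CPM: after division by 0.0632 CPM per read (control) or 0.0513 CPM per read (knockdown), 100% of values fell within 0.01 of a whole number plus 0.001. The values summed to 1001495 CPM (control) and 998507 CPM (knockdown), so the scaled totals are near each other but not equal. No source used here names the normalisation tool. Reads recovered in this way served for counting intervals, and no count model was run, since each group has 1 library.

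Ensembl identifiers were matched to symbols, and coordinates, transcript length, coding length and GC content came from GENCODE release 29 (GRCh38), using the principal transcript of each coding gene. Lengths were had for 12673 of 14815 tested genes (85.5%), and a spline trend (5 knots per term) fitted to coding genes outside the lists accounted for 36.1% of the variance of folds. Pathway genes were named if past 1.5-fold at a mean of at least 10 CPM, at most 4 per list and direction. All members are named. Promoter windows were searched for 4 elements, chosen after the folds were seen, and all 4 are reported. The members and lists were chosen with earlier results of these data known. Steps were tested on simulated data. Python 3.11.15, pandas 2.3.3, scipy 1.17.1 and scikit-learn 1.9.0 were used. Alternatives were pseudocounts of 0.5 and 10 CPM, no mean filter or a mean of 10 CPM, centring, the trend and a fold of 2. A count of genes whose counting interval lay wholly beyond 1.5-fold was chosen after seeing the data.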

Additional observations from a re-analysis of the deposited data

How the results depend on the processing

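No paired analysis was possible because each group has 1 library, and no replicate could be left out. The 15 of 17 pairs and the difference of class medians kept their direction under every alternative run (12 of 14 pairs at a mean of at least 10 CPM). With the length and GC trend subtracted, the cytosolic median was 0.23, the scaffold median −1.10, CHI3L1 −1.40 and the count of lower mitochondrial genes 1. With a pseudocount of 10 CPM, the scaffold median was −1.14, CHI3L1 −1.36 and that count 1. At a fold of 2, 0 cytosolic genes were higher and 0 mitochondrial genes lower. Counting intervals wholly beyond 1.5-fold left 3 cytosolic and 1 mitochondrial gene. Of the 38 members, 20 moved beyond their counting interval under the trend and 3 with a pseudocount of 10 CPM. The trend changed the sign of 7 members, none of which was past 1.5-fold before it. Centring moved all log2 folds by 0.0075. Depth limits MARS2, SARS2 and PARS2 most.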

Other observations

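Several members share a start region with a gene on the opposite strand. For 14 of the 38 genes such a start lay within 1000 bases. Both mitochondrial genes past 1.5-fold are among them, as are CARS2, EARS2, HARS2, SARS2 and WARS2, which did not pass it. The share of all genes with such a start was not computed, and a link between shared starts and folds was not tested. ORC3, a subunit of the origin recognition complex that starts 64 bases from RARS2, stood at 56.7 CPM in the control library and 38.4 CPM in the knockdown library (log2 fold −0.55, against −0.91 for RARS2). LYRM4, a protein of iron-sulfur cluster assembly that starts 105 bases from FARS2, stood at 39.1 and 20.3 CPM (−0.91, against −0.63). MRPS12, a protein of the mitochondrial ribosome, had a log2 fold of −0.78 beside −0.17 for SARS2. UBFD1 had 0.37 beside 0.21 for EARS2, WARS2-AS1 0.17 beside −0.04 for WARS2, and ING1 0.01 beside −0.12 for CARS2.

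Of the 3 cytosolic genes past 1.5-fold, AARS1 and GARS1 have such a neighbour. DDX19B, which starts 120 bases from AARS1, had a log2 fold of 0.01, and the divergent transcript GARS1-DT, 128 bases from GARS1, had 0.03. WDR25, which starts 387 bases from WARS1, had a log2 fold of −0.67, while WARS1 was at 0.56. TERF2IP had 0.14 beside −0.05 for KARS1, and TARS1-DT, with only 8 control reads, had −0.20 beside 0.37 for TARS1. HARS1 and HARS2 start 436 bases apart and are each other's neighbour, with log2 folds of 0.03 and 0.30. Next to AIMP2 (0.16), PMS2, a DNA mismatch repair gene, had 0.13. Exons overlap for some of these pairs, among them WARS1 and WDR25, GARS1 and GARS1-DT, and HARS1 and HARS2, so their reads cannot be fully told apart without the strand setting. The neighbours were examined after the members' values had been seen.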
